A study of Mus musculus with 12 samples.

Results

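Integrins are paired alpha and beta receptors that hold a cell to the extracellular matrix and pass signals across the membrane. The 10 integrin genes described here were Itga5, Itgb3, Itgb6, Itgav, Itgb1, Itga3, Itga6, Itgb4, Itga2 and Itgb5, which include the main receptors for fibronectin, vitronectin, laminin and collagen on carcinoma cells. They were chosen by name, and each was taken as the sum of every H3K27ac interval that the deposited table names for it. Together they held 118 of the 126464 intervals and were 10 of the 22264 genes named in the table. Of those intervals, 73 averaged 10 scaled reads or more over the libraries and could be tested, while 45 lay below that limit. All 10 summed genes passed the same limit, as did 19458 genes in all.

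H3K27ac is a histone acetylation that marks promoters and enhancers in use. It was mapped by sequencing of immunoprecipitated chromatin in wild-type 4T1 cells, a mouse mammary carcinoma line, so no group here carried a gene deletion or transgene. Cells were kept for 48 h in vehicle, 5 mM acetate, 50 µM etomoxir, etomoxir + acetate, etomoxir + SB204990 at 50 µM each, or etomoxir + SB204990 + acetate. Each of the 6 treatments had 2 libraries, and the 12 libraries fall into 2 sets by a suffix in their names, called set 1 and set 2, whose meaning the labels do not give. Nothing states that the libraries of a treatment were grown separately, so p-values here measure only the spread between libraries, which may be technical.

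Acetate feeds the acetyl-CoA pool from which histones are acetylated. Etomoxir blocks the carnitine palmitoyltransferase step that brings fatty acids into mitochondria, and SB204990 blocks ATP citrate lyase, which makes acetyl-CoA from citrate in the cytosol. Integrins matter in carcinoma cells because tight attachment to laminin is a trait of epithelium, whereas fibronectin receptors and the alpha v integrins are used by spreading and migrating cells. Beta 6 is an epithelial subunit, and its pair with alpha v activates latent TGF-beta, a strong inducer of the epithelial-to-mesenchymal transition. Whether these genes gained or lost H3K27ac with the supply of acetyl groups was the question of the comparisons below.

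The signal of the integrin genes lay in a few broad intervals, most of them annotated as intronic. Introns were the annotation of 82 of the 118 intervals and 90.6% of the signal, and 20 intergenic ones held 7.76%. Only 13 intervals averaged 500 scaled reads or more, and these carried 85.5% of all signal, although the median interval was only 1000.5 bp long. Itga3 and Itgb4, laminin receptor subunits, had the 2 longest. Itga3, which pairs with beta 1, had a single interval, chr11:95039251-95111380 (mm10, as are all coordinates here), which spanned 72130 bp. It covered the whole gene but also the start of the neighbouring Pdk2, a pyruvate dehydrogenase kinase gene, and 44.8% of its length lay in the Itga3 body, so the shares of the 2 genes could not be told apart. Itgb4, the beta subunit of hemidesmosomes, had 96.8% of its signal in chr11:115938229-115990162. This interval covered the 5′ end but extended over Sap30bp, with 29.8% of its length in Itgb4. Itga6, the alpha partner of Itgb4, had 95.5% of its signal in chr2:71785610-71819023, inside the gene, over a second annotated coding start.

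**Figure D1:**
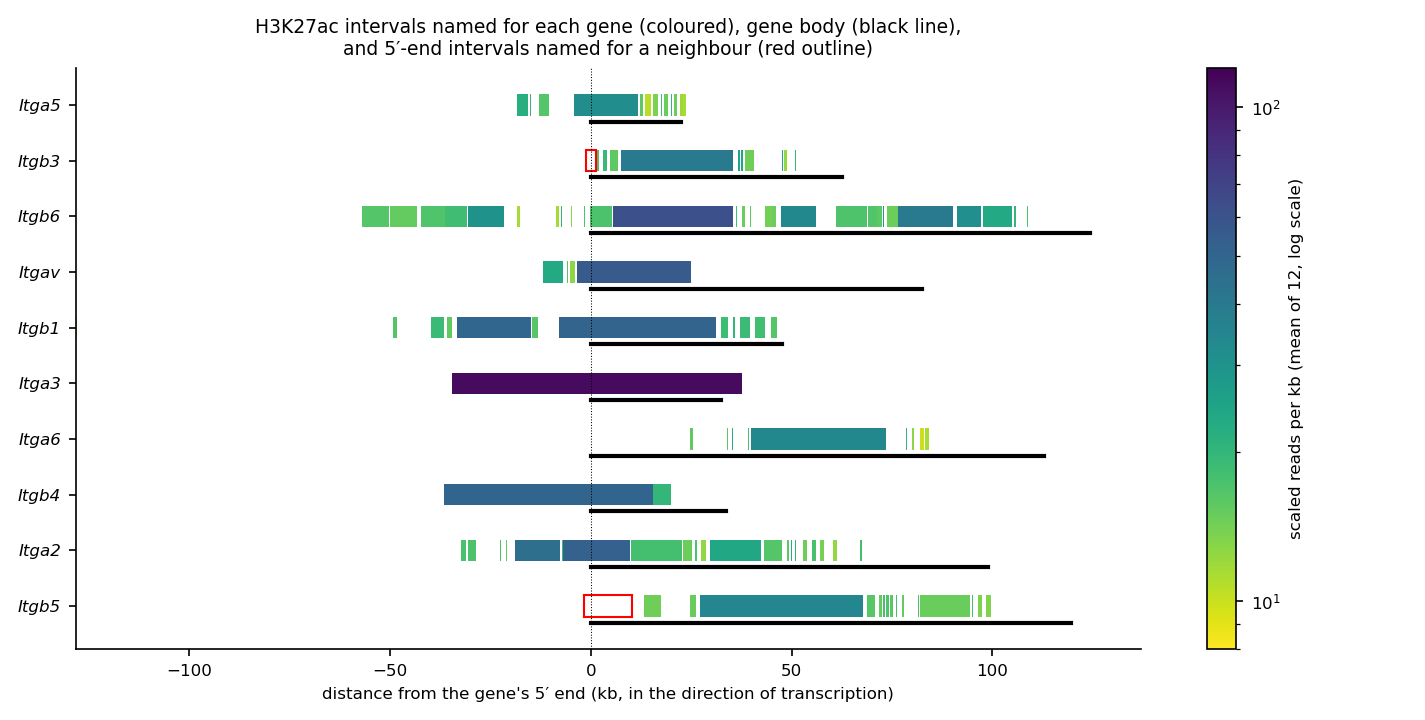
H3K27ac intervals named for each of the 10 integrin genes, by distance from the gene's annotated 5′ end in kb along transcription; colour gives the mean scaled reads per kb over 12 libraries on a log scale, black lines the gene bodies and red outlines the 5′-end intervals that the table names for a neighbour. Itga3 had 1 interval of 72130 bp at 110.8 scaled reads per kb, while Itgb6 had 28 intervals, and the strongest intervals of Itgb3, Itgb5 and Itga6 began inside the gene.

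The other genes ranged from a single dominant interval to many. Itgav, the shared alpha v subunit, had 92.1% of its signal in chr2:83720968-83749446, over its 5′ end. Itga5, the alpha subunit of the main fibronectin receptor, had 72.0% in chr15:103354887-103370913, which covered its start. Itgb6 was the most fragmented, with 28 intervals. Its strongest, chr2:60687147-60717122, lay 5521 to 35496 bp inside the gene and held 44.5% of the signal, whereas the interval over its 5′ end, chr2:60717461-60722795, held 2.20%. Itgb1, the beta subunit shared by alpha 2, alpha 3, alpha 5 and alpha 6, had 62.3% over its start (chr8:128677767-128716770) and 28.6% in an upstream intergenic interval (chr8:128652427-128670860). Itga2, a collagen receptor subunit, had 39.5% over its start (chr13:114922298-114938978) and 23.0% in the intergenic interval beside it (chr13:114939797-114951046).

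The rule left out the 5′ ends of a pair of these genes. The interval over the start of Itgb3, chr11:104606864-104609333, was named Myl4 in the table and had a mean of 65.8 scaled reads. The interval over the start of Itgb5, chr16:33827896-33839798, was named Gm15657 and had a mean of 691, against 1409 in the strongest interval named Itgb5 (chr16:33856866-33897497). The strongest interval named Itgb3 (chr11:104615487-104643419) had a mean of 1115. Sums for Itgb3 and Itgb5 are therefore sums of intragenic signal. Intervals named for other genes also overlapped the bodies of Itgb6, Itgav, Itga6, Itgb4 and Itga2, and sums over every interval on the gene body were run as an alternative chosen after the data were seen.

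RefSeq promoter entries (GRCm38.p6) were at hand for 7 of the 10 genes, and 3 are shown: Itga5 as the fibronectin receptor, and the genes whose start intervals had the highest and the lowest signal per kb, Itga3 at 110.8 and Itgb6 at 17.2. Each line gives the 250 bases before the start site, 5′ to 3′ on the strand of the gene, and capitals mark the letters of the 6 searched motifs that were found. The windows are chr15:103366792-103367041 for Itga5, chr11:95076715-95076964 for Itga3 and chr2:60722604-60722853 for Itgb6, all on the minus strand.
Itga5: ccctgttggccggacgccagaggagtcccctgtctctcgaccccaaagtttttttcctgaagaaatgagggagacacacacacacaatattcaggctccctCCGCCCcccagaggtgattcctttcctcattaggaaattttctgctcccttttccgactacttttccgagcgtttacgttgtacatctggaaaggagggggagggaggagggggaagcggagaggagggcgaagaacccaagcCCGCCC
Itga3: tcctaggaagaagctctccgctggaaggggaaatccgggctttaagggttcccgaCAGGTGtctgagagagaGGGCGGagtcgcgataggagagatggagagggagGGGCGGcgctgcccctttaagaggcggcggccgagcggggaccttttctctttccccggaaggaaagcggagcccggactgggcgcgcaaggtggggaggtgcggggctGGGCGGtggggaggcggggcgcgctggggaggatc
Itgb6: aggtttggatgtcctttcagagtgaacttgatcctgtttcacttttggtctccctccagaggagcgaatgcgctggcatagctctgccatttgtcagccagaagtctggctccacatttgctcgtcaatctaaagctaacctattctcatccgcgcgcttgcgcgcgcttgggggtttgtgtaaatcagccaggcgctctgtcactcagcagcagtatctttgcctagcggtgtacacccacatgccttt

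The motifs were searched on both strands. The GC box was spelled GGGCGG and the E-box read by Snail and Zeb factors CACCTG. The letters for TEAD factors were GGAATG, those for AP-1 were TGANTCA, and the promoter boxes searched were TATAAA as well as CCAAT. The Itga5 window held 2 GC boxes and the Itga3 window held 3, along with 1 E-box. The Itgb6 window held none of the 6 motifs. Over all 32851 RefSeq windows of this length, 32.7% held a GC box, 17.2% the E-box, 33.8% the CCAAT box, 12.6% the TEAD letters, 12.4% the TATAAA box and 6.75% the AP-1 letters. G and C made up 67.6% of the Itga3 window with 22 CpG, 55.6% of the Itga5 window with 11, and 52% of the Itgb6 window with 11, beside a median of 52.4% and 6 over all windows. None of the windows of the 7 genes at their 5′-most start held the TATAAA box or the AP-1 letters, and those of Itgb1 and Itgb5 held GC boxes as well. These matches describe letters and not binding.

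Per kb of the intervals named for each gene, the laminin receptor gene Itga3 stood far above the others. Its single interval also covered the start of Pdk2, and 44.8% of the interval lay in Itga3. The mean of Itga3 over 12 libraries was 110.8 scaled reads per kb, the 99.8 percentile of all genes tested. It was followed by Itgav at 49.2, Itgb4 at 47.8, Itgb1 at 43.0, Itgb3 at 35.0, Itgb6 at 33.1, Itga6 at 31.7, Itga2 at 30.8, Itgb5 at 26.7 and Itga5 at 25.1, while the median gene tested had 23.0. The order Itga3 over Itgav, Itgb4 over Itgb1 and Itgb1 over Itgb3 held in 12 of 12 libraries. Itgb3 over Itgb6, Itga6 over Itga2 and Itga2 over Itgb5 held in 10 of 12. The least separated neighbours were Itgb5 over Itga5, in 7 of 12, and Itgb6 over Itga6 and Itgav over Itgb4, in 8 of 12 each. The start intervals named for neighbours, which are not part of this order, had 58.1 per kb for Itgb5 and 26.6 for Itgb3. In total signal, by contrast, Itgb6 (4163 scaled reads) ranked behind Itga3 alone (7995), with intervals that covered 125776 bp. Of its 28 intervals, 18 touched the Itgb6 body, and some of the others lay over the neighbouring gene Rbms1. For Itga2, 17 of 23 intervals touched the body, and some of the others lay over Itga1. Itga5 had the lowest total (715).

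Acetate raised H3K27ac over integrin genes of each ligand class on the spike-in scale, by about as much as over the genome. In the average over the 3 inhibitor backgrounds (none, etomoxir, and etomoxir + SB204990), 10 of 10 genes rose (limma on log2 of the summed scaled reads + 1, Benjamini-Hochberg adjusted over all 19458 genes, background 88.2% called), but 6 of them (Itgav, Itgb1, Itga3, Itga6, Itgb4 and Itga2) had changes below 0 after median-of-ratios or total-sum scaling, which set the typical gene or the total of each library to the same value. In limma 0 of 10 passed under either of these or on the share of reads times the factor, with 3 at an unadjusted p under 0.05 under median of ratios, 5 under total-sum scaling and 1 with the last. The median log2 fold change of the 10 genes was 0.62, beside 0.63 over all genes. Adjusted p-values ran from 1.4e-05 to 2.2e-04.

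The fibronectin receptor gene Itga5 can be followed library by library. Its summed scaled reads, set 1 and then set 2, were 496 and 655 in vehicle, 833 and 819 in acetate, 566 and 580 in etomoxir, 1055 and 1054 in etomoxir + acetate, 398 and 564 in etomoxir + SB204990, and 658 and 906 in etomoxir + SB204990 + acetate. The highest pair was etomoxir + acetate. Each acetate pair lay above its pair without acetate with no overlap. This was so for 84.2% of all genes without inhibitor, 98.3% in etomoxir and 70.3% in etomoxir + SB204990. In bulk libraries, fewer cells with the mark and less of it per cell cannot be told apart. The average acetate change was 0.71 ± 0.12 (log2, SE), and 0.07 above the median of all genes.

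Among the alpha v group, the beta subunits had larger changes than alpha v itself. Itgb5, a vitronectin receptor subunit, had the largest average change of the 10 genes at 0.79 ± 0.11, with 1361 and 1547 scaled reads in vehicle, 2337 and 2072 in acetate, 1542 and 1331 in etomoxir, 2968 and 2737 in etomoxir + acetate, 913 and 1335 in etomoxir + SB204990, and 1680 and 2115 in etomoxir + SB204990 + acetate. Its acetate libraries exceeded the matching libraries without acetate in both sets and all 3 backgrounds. Itgb3, the partner of alpha v in the classical vitronectin receptor, changed by 0.76 ± 0.11, and Itgb6 by 0.74 ± 0.11. Itgav changed by 0.62 ± 0.10, which is 0.01 below the median of all genes. Differences between members were not tested.

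The laminin and collagen receptor genes had smaller average changes. Itga2 had the smallest average change at 0.49 ± 0.11, with 1700 and 1995 scaled reads in vehicle, 2282 and 2288 in acetate, 2086 and 2179 in etomoxir, 3117 and 3225 in etomoxir + acetate, 1337 and 1742 in etomoxir + SB204990, and 1973 and 2623 in etomoxir + SB204990 + acetate. Its lowest library was etomoxir + SB204990 of set 1 and its highest etomoxir + acetate of set 2. Itga6 changed by 0.53 ± 0.11 and Itgb4, its partner in hemidesmosomes, by 0.59 ± 0.10. Itga3 changed by 0.60 ± 0.10, from 6941 and 6612 scaled reads in vehicle to 9839 and 8471 in acetate and 10934 and 10690 in etomoxir + acetate. Itgb1, which serves receptors of each of these ligands, changed by 0.61 ± 0.10. In this average, Itga5, Itgb3, Itgb6 and Itgb5 were above the genome-wide median change and the other 6 below it, whereas in etomoxir + SB204990 alone 8 of 10 were above it.

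**Figure D2:**
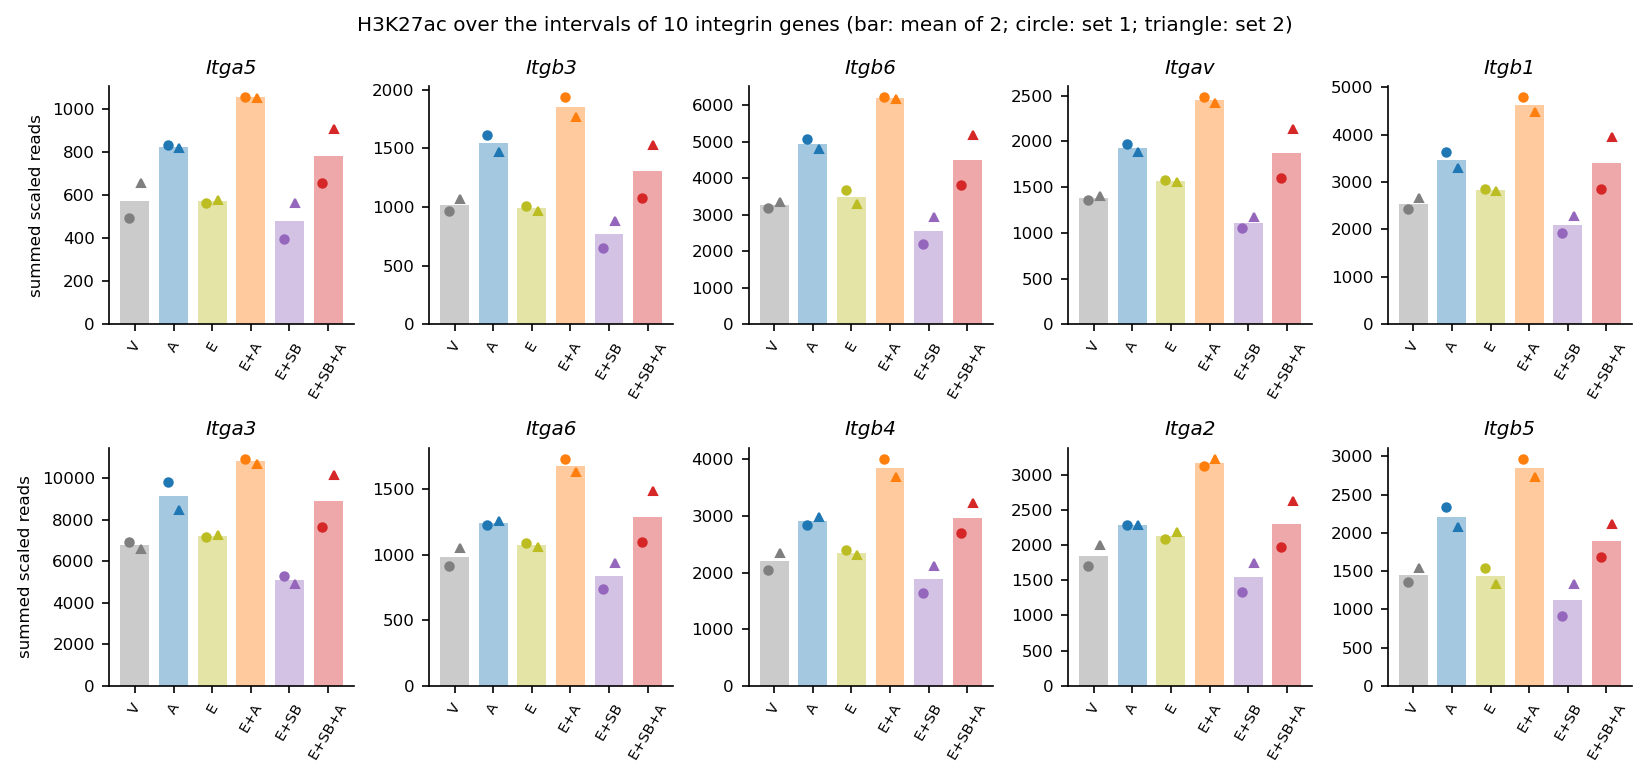
Summed scaled H3K27ac reads (vertical axes, each from 0) of the 10 integrin genes in vehicle (V), acetate (A), etomoxir (E), etomoxir + acetate (E+A), etomoxir + SB204990 (E+SB) and etomoxir + SB204990 + acetate (E+SB+A); bars are means of 2 libraries, circles set 1 and triangles set 2. In each gene both acetate libraries lie above both libraries without acetate within each background on this spike-in scale, as in 84.2% of all genes without inhibitor, 98.3% in etomoxir and 70.3% in etomoxir + SB204990 (6 of the 10 average changes turn negative after median-of-ratios scaling), and the E+SB+A libraries are the widest apart.

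The acetate difference was examined in each background separately. Without an inhibitor, 0 of 10 genes passed in limma (background 0% called) and 0 in edgeR, although 8 had an unadjusted p under 0.05 in either tool, as did 42.9% of all genes. Their log2 changes ran from 0.31 to 0.60, with a median of 0.46 beside 0.48 over all genes, and were positive in both sets for 10 of 10, although the same 6 genes as in the average were below 0 after median-of-ratios scaling. The lowest adjusted p was 0.10. A replicate block (a term for the set) and sums over the gene body changed the count of genes passing, as given with the alternatives at the end. The call depended on how the spread was estimated, as 8 genes passed without the etomoxir + SB204990 library of set 1 or of set 2 (61.1% and 61.2% of all genes), 6 without either etomoxir + SB204990 + acetate library (11.9% in both), and 10 when only the vehicle and acetate libraries were fitted (61.5%).

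In etomoxir, acetate was followed by higher signal in 10 of 10 genes (background 78.2%), 6 of which, the same as in the average, had changes below 0 after median-of-ratios or total-sum scaling, and none of which passed in limma under these or on the share of reads times the factor (2, 3 and 1 at an unadjusted p under 0.05). The median change was 0.71 beside 0.79 over all genes. Itgb5 had 0.99 ± 0.19 and Itgb3 0.91 ± 0.19, whereas Itga2 had 0.57 ± 0.18 and Itga3 0.58 ± 0.18. With the etomoxir + acetate library of set 1 left out, 6 of 10 passed (28.8% of all genes).

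In etomoxir + SB204990, acetate was again followed by higher signal in 10 of 10 genes (background 57.7%), of which Itga6 and Itga2 turned negative after median-of-ratios scaling and Itga6, Itga2 and Itgb4 after total-sum scaling. None of the 10 passed in limma under these scalings, on the share of reads times the factor, or with only the libraries compared, with 0, 1, 0 and 5 at an unadjusted p under 0.05 in that order. The median change was 0.72 beside 0.64 over all genes, and 8 of 10 were above that median. Itgb6 had the largest change (0.81 ± 0.18), followed by Itga3 (0.80 ± 0.18). The sets differed most in Itga3, where the change was 0.54 in set 1 and 1.06 in set 2. The medians of the 10 genes were 0.66 in set 1 and 0.74 in set 2, and Itga5 had 0.72 and 0.68. With the etomoxir + SB204990 + acetate library of set 2 left out, 0 of 10 passed in limma, with 9 at an unadjusted p under 0.05 (0% and 30.8% of all genes), and 5 passed without the etomoxir + SB204990 library of set 1 (23.3%).

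**Figure D3:**
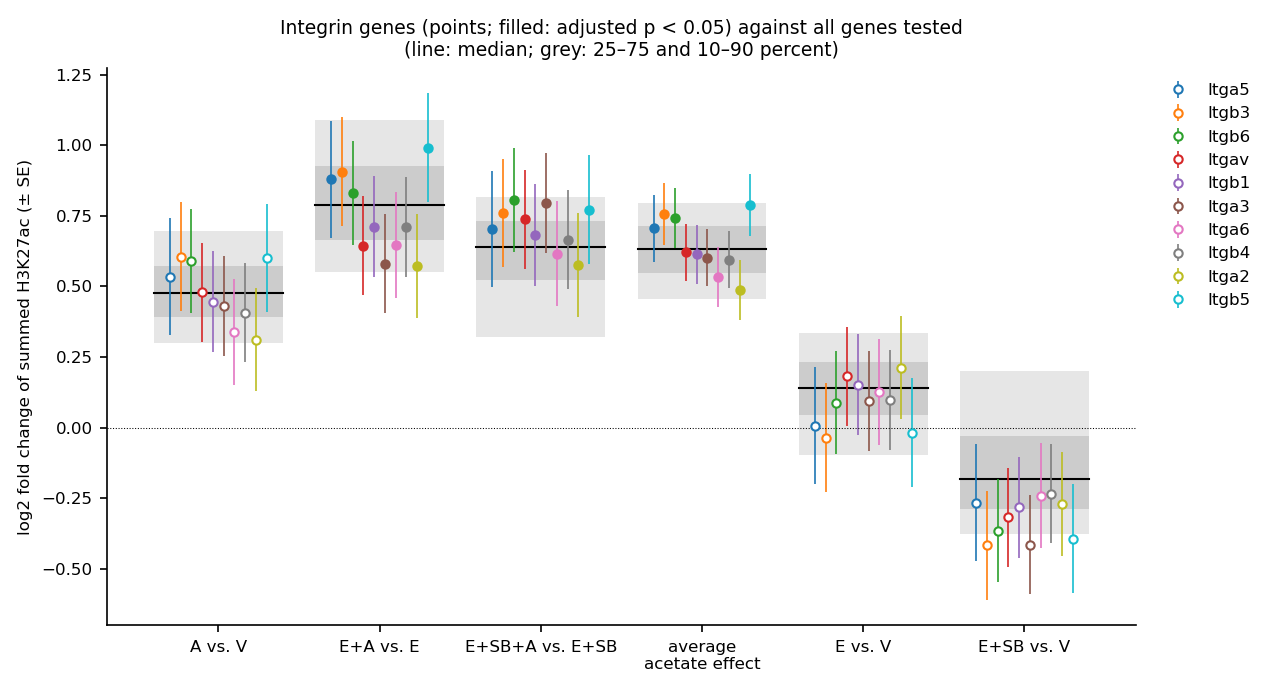
Log2 fold change of summed H3K27ac (vertical axis, ± SE from limma) of the 10 integrin genes as points, filled where the adjusted p was under 0.05, in 6 comparisons named as V vehicle, A acetate, E etomoxir and SB SB204990; the line and grey bands are the median, the middle 50% and the middle 80% of 19458 genes. For the average acetate effect the median was 0.62 beside 0.63 (6 of the 10 are below 0 after median-of-ratios scaling), while with both inhibitors against vehicle all 10 points lie below the genome-wide median and Itgb3, Itga3 and Itgb5 below the middle 80%.

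Etomoxir alone left the integrin genes near vehicle. No gene passed (0 of 10 in limma and in edgeR, background 0.0154%), and 0 had an unadjusted p under 0.05 in either tool. The log2 differences ran from -0.04 to 0.21 with a median of 0.10, beside 0.14 over all genes, and the median was -0.043 after median-of-ratios scaling and -0.13 on the share of reads times the factor. Both etomoxir libraries exceeded both vehicle libraries in 5 of 10 genes, as in 40.2% of all genes. In the other 5 the groups overlapped, and none had both etomoxir libraries below vehicle. Added to acetate, etomoxir gave differences of 0.24 to 0.47 with a median of 0.36, beside 0.43 over all genes. They were positive in both sets for 10 of 10, and the libraries did not overlap in 10, as in 87.4% of all genes. After median-of-ratios scaling 9 of 10 were below 0, with a median of -0.078. None passed in limma or edgeR (0 of 10, background 0.0771%), with 4 at an unadjusted p under 0.05 in each, beside 32.6% of all genes in limma. Here too the call was not stable, as 10 passed when only the libraries compared were fitted (73.1% of all genes) and 4 without the etomoxir + SB204990 library of set 1 or of set 2 (43.1% and 43.5%).

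With etomoxir + SB204990, signal was below vehicle in both sets for 10 of 10 genes, but the differences did not pass the test. The share of all genes below vehicle in both sets was not counted. Changes ran from -0.42 to -0.24 with a median of -0.30, beside -0.18 over all genes. The median was -0.13 after median-of-ratios scaling, -0.076 after total-sum scaling and -0.024 on the share of reads times the factor. None passed in limma or edgeR (adjusted p = 0.78 for each gene in limma, background 0.00514%), and 2 had an unadjusted p under 0.05 in each tool, beside 4.24% of all genes in limma. These were Itgb3 at -0.42 ± 0.19 and Itga3 at -0.41 ± 0.18. Itgb3 had 655 and 879 scaled reads with both inhibitors against 962 and 1067 in vehicle, and Itga3 had 5278 and 4894 against 6941 and 6612. In 6 of the 10 genes the libraries of the groups did not overlap, as in 25.5% of all genes. The sign was not kept for each gene under every setting. On the share of reads times the factor, Itga5, Itga6, Itgb4 and Itga2 had values just above 0, and with only intervals within 10 kb of a start site Itga6 had 0.63 and Itga5 0.18.

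A single library stood apart here. The etomoxir + SB204990 library of set 2 had the fewest reads in intervals (7179165) and the largest share of them in the weakest quartile of intervals (2.77%, against 0.990% in the library with the smallest share). Without it, 2 of 10 genes passed against vehicle (12.3% of all genes) and the median change was -0.44, beside -0.46 over all genes. Without the set 1 library of the treatment, the median was -0.14, beside 0.11 over all genes. Its part in the result was not tested further. Against etomoxir alone, etomoxir + SB204990 was lower in both sets for 9 of 10 genes. The libraries did not overlap in 9, as in 47.1% of all genes, and the median change was -0.41 beside -0.33 over all genes. None passed in limma or edgeR (background 0%), with 5 at an unadjusted p under 0.05 in each, beside 21.0% of all genes in limma.

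Between both inhibitors with acetate and acetate alone, the sets disagreed. Each of the 10 genes was lower in set 1 and higher in set 2, with medians of -0.34 and 0.16. No gene passed in limma or edgeR (background 0.0514%), and 0 had an unadjusted p under 0.05 in either tool. The acetate difference itself was compared between backgrounds by interaction terms. Relative to acetate without inhibitor, it differed by 0.15 to 0.39 in etomoxir, with 6 of 10 genes below 0 after median-of-ratios scaling, and by 0.16 to 0.37 in etomoxir + SB204990, but 0 of 10 genes passed in limma and edgeR in either comparison (background 0% in both) and 0 had an unadjusted p under 0.05. The lowest adjusted p-values were 0.77 and 0.999. These comparisons share libraries with those above.

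At the level of intervals, the average acetate change was positive in both sets for 73 of 73 tested intervals, and 55 passed (background 77.2%). It ranged from 0.30 in a weak intergenic interval of Itgav (chr2:83719295-83720450, mean 14.6 scaled reads) to 0.96 ± 0.13 in an intron of Itgb6 (chr2:60617655-60625002, mean 172), adjusted p = 8.5e-11. This Itgb6 interval had 114 and 115 scaled reads in vehicle, 187 and 219 in acetate, 130 and 119 in etomoxir, 269 and 282 in etomoxir + acetate, 82.0 and 135 in etomoxir + SB204990, and 169 and 240 in etomoxir + SB204990 + acetate. In every background both of its acetate libraries lay above both of its libraries without acetate. Among gene sums this was so for 84.2% of all genes without inhibitor, 98.3% in etomoxir and 70.3% in etomoxir + SB204990. The share of all intervals was not counted.

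Whether an interval passed went with its strength. All 25 intervals averaging 100 scaled reads or more passed in the average, beside 30 of 48 weaker ones, while the median changes were 0.67 and 0.65. Among the strongest intervals of each gene, those of Itgb5 (0.79 ± 0.10), Itgb6 (0.78 ± 0.10) and Itgb3 (0.77 ± 0.10) changed most, and that of Itga2 least (0.44 ± 0.10), but those of Itgav, Itgb1, Itga3, Itga6, Itgb4 and Itga2 were below 0 after median-of-ratios or total-sum scaling. Itgb5 and Itga2 were also the extremes of the sums. The intergenic interval upstream of Itgb1 changed by 0.66 ± 0.10 and the one over its start by 0.59 ± 0.10. Median-of-ratios scaling brought 0 of 73 past the test, with 2 at an unadjusted p under 0.05 in limma.

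**Figure D4:**
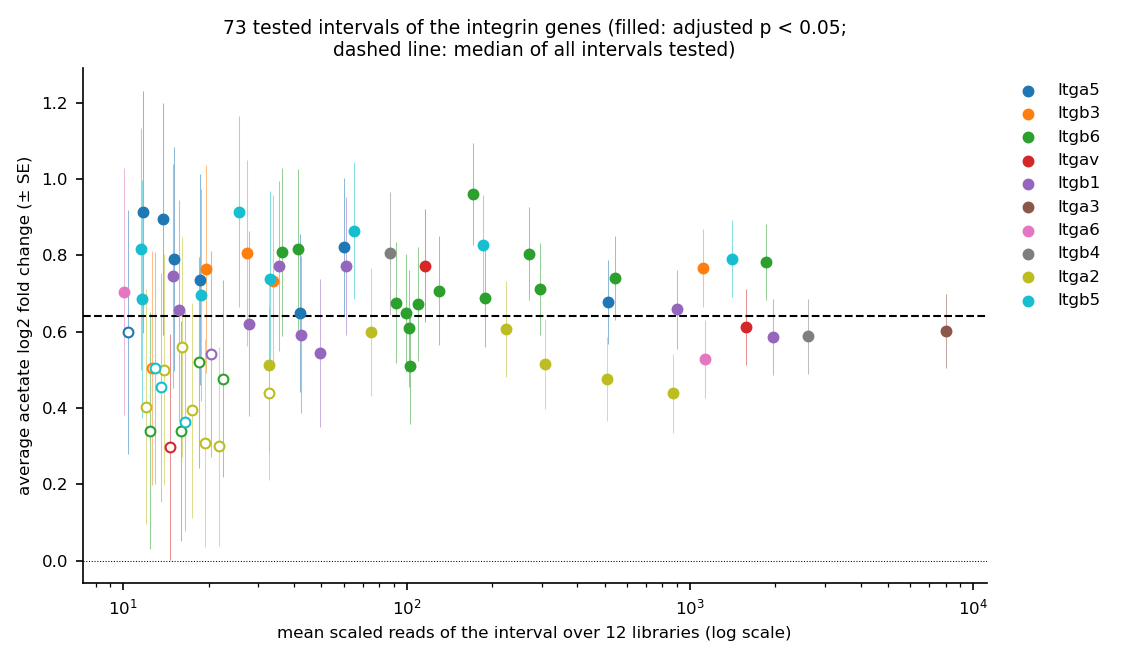
Average acetate log2 fold change (vertical axis, ± SE) of the 73 tested intervals of the integrin genes against their mean scaled reads over 12 libraries (log axis), coloured by gene and filled where the adjusted p was under 0.05; the dashed line is the median of all 63903 intervals tested. Intervals scatter about the genome-wide line, and the 18 that did not pass have means of 32.8 or less (after median-of-ratios scaling, 0 of 73 passed).

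In single backgrounds, 0 of 73 intervals passed for acetate against vehicle in limma and edgeR (background 0.0955%), with 27 at an unadjusted p under 0.05 in each. With only the libraries compared 28 passed (23.3% of all intervals), and with a minimum mean of 50 it was 13 of 32 (25.6%). Leaving out a library gave 23 without etomoxir + SB204990 of set 1 or of set 2 (21.0% and 21.2%) and 13 without etomoxir + SB204990 + acetate of set 1 or of set 2 (8.98% and 8.99%). With acetate 44 passed in etomoxir (background 56.4%) and 25 in etomoxir + SB204990 (background 27.4%). These counts were not stable, nor was the share of all intervals. For the former, 9 passed without etomoxir + acetate of set 1 (8.05% of all intervals), 10 without etomoxir of set 2 (10.5%), 24 without etomoxir + acetate of set 2 (27%) and 27 without etomoxir of set 1 (25%). For the latter, 8 passed without etomoxir + SB204990 of set 1 (9%) or etomoxir + SB204990 + acetate of set 2 (3.31%), and 53 without etomoxir + SB204990 of set 2 (71.6%). Both were 0 in limma under the 3 other scalings, and the latter was also 0 without the intensity trend or with only the libraries compared. Etomoxir against vehicle gave 0 in both tools (background 0.0626%) and 0 at an unadjusted p under 0.05, and etomoxir + SB204990 against vehicle gave 0 in both tools (background 0.0532%) with 6 at an unadjusted p under 0.05 in each. The strongest Itgb6 interval had the lowest value among the strongest intervals of the 10 genes, at -0.57 ± 0.17 (limma, adjusted p = 0.30). It had 982 and 1068 scaled reads against 1590 and 1450 in vehicle, with no overlap. Among gene sums, 25.5% of all genes were likewise lower with no overlap.

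The 5′-end intervals that the table names for neighbours behaved much like those named for the integrin genes. The Itgb5 start interval had 573 and 522 scaled reads in vehicle, 971 and 767 in acetate, 603 and 571 in etomoxir, 1089 and 935 in etomoxir + acetate, 379 and 402 in etomoxir + SB204990, and 629 and 852 in etomoxir + SB204990 + acetate. Its average acetate change was 0.78 ± 0.11 (limma, adjusted p = 3.6e-11). The Itgb3 start interval changed by 0.82 ± 0.18 (limma, adjusted p = 1.6e-05). After median-of-ratios scaling these were 0.14 for Itgb5 and 0.19 for Itgb3 (limma, adjusted p of 0.93 and 0.84).

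The 10 genes moved together across the libraries. The Pearson correlation of their summed signal over 12 libraries was 0.893 to 0.993 for the 45 pairs, with a median of 0.972, and all pairs share the spike-in factor of each library. After median-of-ratios scaling, which removes what a whole library has in common, the correlations spread from -0.289 to 0.973 with a median of 0.547. The most alike were Itgav and Itga3 (0.973), Itgav and Itgb1 (0.945), Itgb1 and Itga3 (0.932) and Itgb3 and Itgb6 (0.891). The least alike were Itga2 and Itgb5 (-0.289) and Itga6 and Itgb5 (-0.263). In the average acetate comparison on this scale 0 of 10 genes passed in limma, and 3 had an unadjusted p under 0.05, namely Itgb5 at 0.15, Itgb3 at 0.12 and Itga2 at -0.15, with a lowest adjusted p of 0.30.

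**Figure D5:**
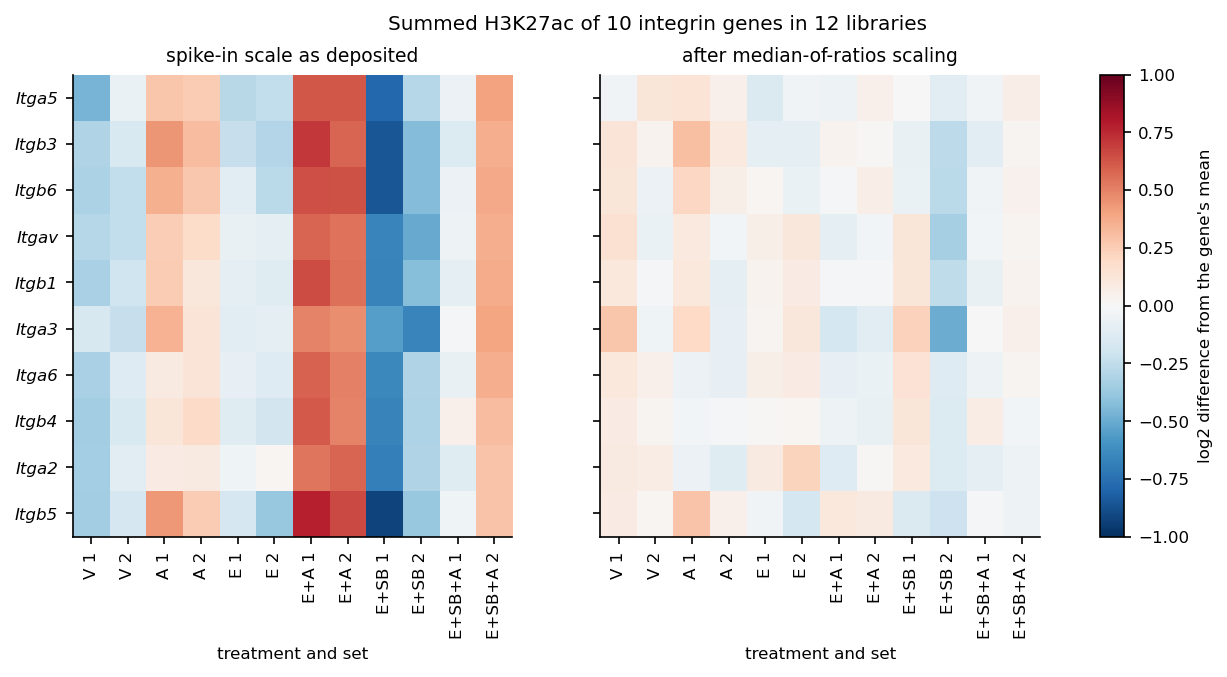
Summed H3K27ac of the 10 integrin genes in 12 libraries as the log2 difference from each gene's own mean (colour), on the deposited spike-in scale at left and after median-of-ratios scaling at right, with treatments as V, A, E and SB and the set number. At left each library shows much the same colour in the 10 genes, with a median correlation between genes of 0.972, and at right the genes differ more, with a median of 0.547.

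Other genes of cell adhesion followed the same shift. Of 16 other integrin genes, 12 had an interval and 11 rose in the average acetate comparison, with a median change of 0.64, while Itga8 (0.49 ± 0.29) did not pass. The largest were Itgb8 (0.90 ± 0.29), a further alpha v partner with only 21.1 scaled reads, Itga2b (0.80 ± 0.15), the platelet fibrinogen receptor subunit, and Itga11 (0.76 ± 0.13), a collagen receptor subunit. Among matrix ligands, 22 of 24 rose, including Col1a1 (0.89 ± 0.12), Col4a2 (0.82 ± 0.15) and Ccn1 (0.75 ± 0.14), while Lama1 (0.59 ± 0.28) and Col3a1 (0.22 ± 0.40) did not pass. Of the intracellular adhesion complex, 35 of 35 tested rose, led by Git2 (0.88 ± 0.21), a paxillin-binding adaptor, Tns1 (0.85 ± 0.13), which links integrins to actin, and Crk (0.83 ± 0.16), an adaptor. In the hemidesmosome list, 4 of 4 rose, including Krt14 (0.73 ± 0.12), Col17a1 (0.69 ± 0.18) and Plec (0.67 ± 0.10). These counts stand beside the 88.2% of all genes called. After median-of-ratios scaling 0 of the 75 genes in these 4 lists passed in limma, with 7 at an unadjusted p under 0.05, beside 0.0411% and 11.4% of all genes. For etomoxir + SB204990 against vehicle 0 passed in limma, with 10 at an unadjusted p under 0.05 and list medians of -0.12, -0.24, -0.26 and -0.31 in the order above. For etomoxir against vehicle 0 passed, with 1 at an unadjusted p under 0.05.

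The label of a mammary carcinoma line was checked against marker genes. Of 14 epithelial markers, 12 had an interval, from 227 scaled reads at Ehf to 4048 at Krt8 with a median of 895, while Krt18 and Krt5 had none. Of 10 leukocyte markers, 7 had one, with a median of 77.2. The pan-leukocyte gene Ptprc was at 61.1 and Cd3e at 15.5, but Itgam was at 232, Csf1r at 504 and the single interval named for the leukocyte integrin gene Itgb2 at 3857, so the ranges of these lists overlapped. Endothelial markers had intervals in 3 of 4 cases, the highest at Pecam1 (733), and fibroblast markers in 4 of 4, the highest at Dcn (418). In the average acetate comparison 12 of 12 epithelial, 6 of 7 leukocyte, 3 of 3 endothelial and 4 of 4 fibroblast markers rose, beside 88.2% of all genes, and 0 of each list were called in limma after median-of-ratios scaling, with 1, 1, 0 and 1 at an unadjusted p under 0.05. Summed over each list, the levels across libraries were 10014 to 24553 scaled reads for epithelial, 2684 to 7454 for leukocyte, 466 to 1294 for endothelial and 306 to 779 for fibroblast markers. Their part in the integrin result was not tested.

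Libraries held 7179165 to 16676442 reads in intervals, and the spike-in factors by which reads were multiplied ran from 0.398 to 1. In set 1, etomoxir had 14024593 reads in intervals at a factor of 0.571, and etomoxir + acetate had 13652107 at a factor of 1. The part of the factors in the acetate differences was not tested beyond the scalings given above.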

How the data were processed

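H3K27ac ChIP-seq was analysed in 12 libraries of 4T1 cells, 2 for each of 6 treatments. Per the study's methods and reporting summary, cells were fixed and their chromatin cut with MNase, 7.5% human chromatin was added as a spike-in, and reads were aligned to a merged human and mouse (mm10) genome with peaks called as broad regions. Whether peaks were called per library or on pooled libraries is not given in the sources used here. The deposited signal values are reads per interval multiplied by a factor that the authors took from the share of human reads in each library and divided by the highest factor. In 2 columns, 1 in each set, that factor is 1 and the deposited values are plain read counts. The factor was thus set separately in each set, so scaled levels compare more surely within a set than between sets, and statements on overlap between groups compare across both. Dividing by it gave whole reads for 100% of values in every column (tolerance 0.01).

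Values were summed over the intervals named for a gene. Genes and intervals with a mean of at least 10 were tested with limma 3.58.1 (R 4.3.3) on log2(value + 1), with an intensity trend, 6 treatment means and all 12 libraries, so that treatments share 1 estimate of spread. Fold changes on this scale understate changes of weak intervals. P-values were two-sided and adjusted by Benjamini-Hochberg over all 19458 genes or 63903 intervals, with a threshold of 0.05. The average acetate effect is the mean of the 3 acetate differences. The test was also run on simulated data with known changes, and the outcome is not given here. edgeR 4.0.16 (quasi-likelihood) was run on the recovered reads with the factors as offsets. Other scalings, filters, pseudocounts, interval sets and left-out libraries were tried as alternatives. By rule all members were named, with their strongest and start-site intervals and the intervals at the extremes of the average acetate effect, and at most 3 called genes per list, those with the largest change. The list genes named as not passing, the marker genes and the neighbour-named start intervals were chosen after their values were seen. Members and lists were chosen with earlier results of these data known. Gene bodies are from GENCODE and promoter windows from RefSeq. The 21 symbols altered to dates by a spreadsheet include no member. Depth is given as reads in intervals, and precision rests on 2 libraries per treatment.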

Additional observations from a re-analysis of the deposited data

How the results depend on the processing

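With median-of-ratios, total-sum or share-times-factor scaling, 0 members and 0 intervals passed in limma for acetate in etomoxir, acetate in etomoxir + SB204990 or the average. The median change of the members for acetate without inhibitor, in etomoxir, in etomoxir + SB204990, on average, and for etomoxir + SB204990 against vehicle was -0.024, -0.078, 0.087, -0.020 and -0.13 with median of ratios and -0.0076, -0.032, 0.056, -0.0095 and -0.076 with total-sum scaling. With share times factor it was 0.24 without inhibitor, 0.30 in etomoxir + SB204990, 0.41 on average, -0.13 for etomoxir and -0.024 for etomoxir + SB204990 against vehicle. The cause was not tested.

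Signs changed under median of ratios for acetate in etomoxir in Itgav (-0.14), Itgb1 (-0.078), Itga3 (-0.21), Itga6 (-0.14), Itgb4 (-0.078) and Itga2 (-0.22), in etomoxir + SB204990 in Itga6 (-0.019) and Itga2 (-0.059), and on average in Itgav (-0.016), Itgb1 (-0.024), Itga3 (-0.035), Itga6 (-0.10), Itgb4 (-0.042) and Itga2 (-0.15). With total-sum scaling the same genes, in this order, had -0.099, -0.032, -0.16, -0.096, -0.033 and -0.17 in etomoxir and -0.0056, -0.013, -0.024, -0.093, -0.032 and -0.14 on average, and in etomoxir + SB204990 the signs changed in Itga6 (-0.050), Itgb4 (-0.00058) and Itga2 (-0.090). Their strongest intervals had, on average, Itgav (-0.031), Itgb1 (-0.059), Itga3 (-0.042), Itga6 (-0.12), Itgb4 (-0.057) and Itga2 (-0.21) with median of ratios and -0.013, -0.041, -0.024, -0.098, -0.039 and -0.19 with total-sum scaling. Etomoxir + SB204990 against vehicle turned positive with share times factor in Itga5 (0.0091), Itga6 (0.035), Itgb4 (0.041) and Itga2 (0.0050), and within 10 kb of a start site in Itga5 (0.18) and Itga6 (0.63).

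Fitting only the libraries compared gave 10 members for acetate without inhibitor, 0 in etomoxir + SB204990 (5 at an unadjusted p under 0.05) and 10 for etomoxir + acetate against acetate, and 28 and 0 intervals in the first and second of these. With a replicate block 5 members and 6 intervals passed for acetate without inhibitor, and no other count moved by over 1.5 times. Deviations of same-numbered libraries correlated at 0.561 to 0.601 among vehicle, acetate and etomoxir + SB204990, but over all 15 pairs of treatments at -0.225 to 0.601, with 4 over 0.1, so the numbers were not taken as pairs. Intervals within 10 kb of a start site gave 6 of 9 members in etomoxir + SB204990, with medians of 0.92 in etomoxir, 0.63 in etomoxir + SB204990 and 0.66 on average. Sums over the gene body gave 7 members for acetate without inhibitor, and sums without intergenic intervals an average median of 0.61. A minimum mean of 50 gave 13 intervals for acetate without inhibitor and 32 of 32 on average, since fewer were tested. Without the intensity trend 27 intervals passed in etomoxir and 0 in etomoxir + SB204990. A count printed without the share of all genes or intervals under its setting is not a result about the integrin genes. The block, the 10 kb limit, the gene-body sums and the fit without the trend have no such share here.

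Leaving out 1 library at a time gave 0 to 8 members for acetate without inhibitor, 6 to 10 in etomoxir, 0 to 10 in etomoxir + SB204990, 0 to 2 for etomoxir + SB204990 against vehicle, 0 to 9 against etomoxir and 0 to 4 for etomoxir + acetate against acetate. It gave 0 to 23, 9 to 58 and 8 to 53 intervals for the 3 acetate comparisons and 0 to 3 for etomoxir + SB204990 against vehicle. Medians ran from 0.66 to 0.77 in etomoxir, 0.52 to 0.94 in etomoxir + SB204990, 0.55 to 0.69 on average and -0.44 to -0.14 for etomoxir + SB204990 against vehicle. For intervals the low ends were without etomoxir + acetate of set 1 (9) or etomoxir of set 2 (10), and without etomoxir + SB204990 of set 1 or etomoxir + SB204990 + acetate of set 2 (8 each). The high end of 53 was without etomoxir + SB204990 of set 2. The average acetate comparison kept 10 of 10 in all 12 of these fits.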
